A study of Mus musculus with 2 samples.

Results

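The genes described here build the nuclear pore and the receptors that carry cargo through it. They were chosen by name, not by any measured value. They are the entries whose symbol is a numbered nucleoporin (Nup), a numbered importin (Ipo), an importin alpha (Kpna), Kpnb1, a transportin (Tnpo) or an exportin (Xpo). The rule found 43 genes of the 43346 mouse gene entries. Of these, 20 were nucleoporins, 17 import receptors or adaptors, and 6 export receptors. The cells were G1E-ER4, an immortalized mouse erythroid line in which the endogenous Gata1 is not functional and an estrogen-dependent GATA1 fusion protein takes its place. All cells had received 10 nM 17beta-estradiol for 24 h, which activates the fusion protein and starts red cell maturation. The labels give 1 group with 2 libraries of polyadenylated RNA, replicates 1 and 2, so levels and not responses to estradiol were measured. Both carry the same biosample record, and the spread between them may be technical.

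The nuclear pore is a ring of nucleoporins in the nuclear envelope. Stacked outer and inner rings form its frame, phenylalanine-glycine repeat proteins fill the channel, and further proteins face the cytoplasm and the nucleoplasm. Importins and exportins bind cargo and pass through the channel, and the small GTPase Ran sets their direction: in the nucleus RanGTP releases cargo from importins and loads it onto exportins. In maturing erythroblasts the nucleus condenses before it is expelled. Xpo7, an exportin with a broad range of cargo, is known from earlier work as a gene induced in terminal erythroid maturation and needed for that condensation.

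Replicate 1 held 70451042 estimated counts and replicate 2 held 13841487, so replicate 1 was 5.09 times as deep. With 3 counts as the upper limit for a count of 0, a gene with no count could still have 0.0426 CPM (a count scaled to the library total) in replicate 1, and 0.217 CPM in the shallower replicate. Such limits, and the count intervals used further on, cover counting error only. Levels are in TPM, the share of transcripts scaled to a fixed total and corrected for their length. A gene was called detected when it reached at least 1 TPM in both libraries. All 10 erythroid markers were detected, with a summed level of 233535 TPM in replicate 1 and 89073 TPM in replicate 2. Gata1 is among them, and in these cells its level may include reads of the GATA1 fusion, which was not tested. Of 5 megakaryocyte markers, 2 were detected (Gp9 and Itga2b), and Pf4 and Ppbp were at 0. No marker of mast cells, neutrophils, monocytes, B cells, T and NK cells or stroma was detected, and none of these lists summed to more than 1.11 TPM. In bulk RNA, fewer cells of a type and less RNA per cell cannot be told apart.

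Most genes of the pore and its receptors were detected, 33 of the 43 genes (76.7%), against 17.2% of all gene entries and 33.1% of protein-coding genes. Taken singly, replicate 1 had 39 of the genes at 1 TPM or more and replicate 2 had 33. The median of the mean levels was 8.89 TPM, and 13 genes reached 10 TPM in both libraries. Over all protein-coding genes, detected or not, the median was 0.035 TPM. Over detected protein-coding genes only it was 19.2 TPM, whereas the 8.89 TPM includes the 10 members that were not detected. Together the 43 genes took 0.0668% of the TPM of replicate 1 and 0.0729% of that of replicate 2. Across the 43 genes the levels of the libraries had a Spearman rho of 0.81, a description over genes that share their libraries. Import receptors and adaptors had the highest group median, 12.1 TPM with 15 of 17 detected. Nucleoporins had a median of 5.09 TPM with 12 of 20 detected, and exportins one of 4.11 TPM with 6 of 6 detected. The order of the nucleoporin and exportin medians differed between the libraries: in replicate 1 nucleoporins had 5.75 and exportins 5.67 TPM, while in replicate 2 they had 1.38 and 2.88 TPM.

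**Figure D1:**
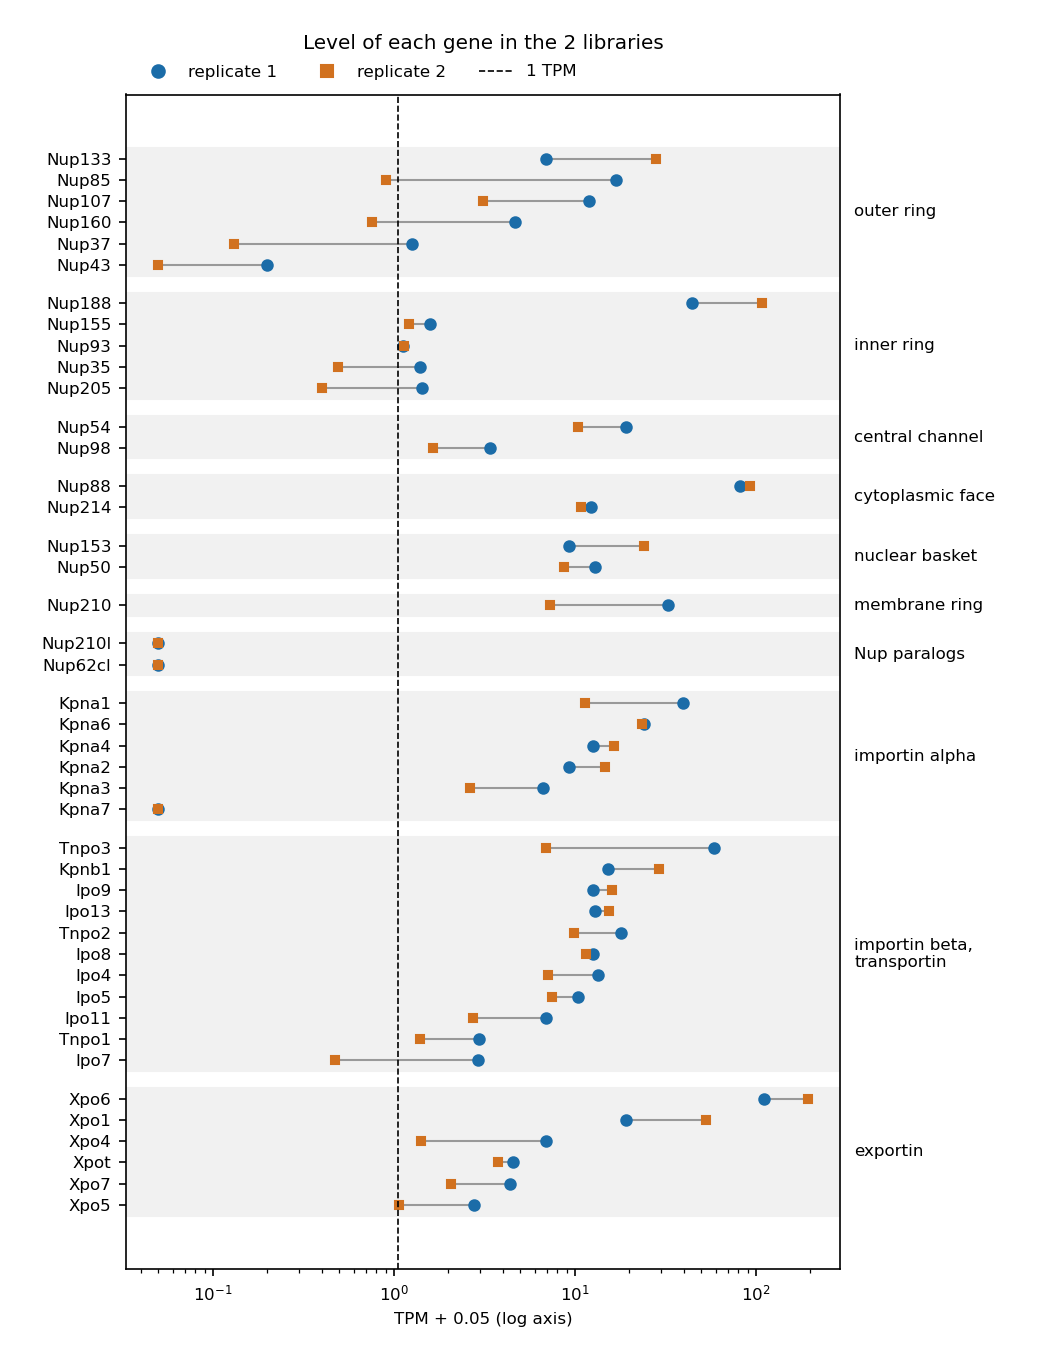
Level of each of the 43 genes in replicate 1 (circles) and replicate 2 (squares), in TPM with 0.05 added, on a log axis, grouped by role; the dashed line marks 1 TPM. Xpo6, Nup88 and Nup188 lie furthest to the right, and the outer ring genes Nup85, Nup37 and Nup43 lie left of the line in replicate 2.

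In what follows a pair of values is replicate 1 and then replicate 2, and means are given with the SD of n = 2. The outer ring, the Y-shaped complex that frames the pore on both faces, had 2 of its 6 numbered genes detected. Its genes Sec13, Seh1l and Ahctf1 have other names and fell outside the rule. They were detected, with 33.8 and 9.55, 3.57 and 7.26, and 42.2 and 21.1 TPM. Nup133, at the base of the complex, was the highest of the 6 by the mean, with 6.88 and 27.9 TPM (17.4 ± 14.9). Nup85 had 16.9 and 0.85 TPM from 2360 and 20 estimated counts. It was the highest of the 6 in replicate 1 and missed 1 TPM in replicate 2. The authors' interval bounds for its posterior mean in replicate 2, of unstated level, were 1.38 to 3.68 TPM, above that limit. Nup107 had 11.97 and 3.05 TPM. Nup160 had 4.61 and 0.71 TPM, with bounds of 0.884 to 3.99 TPM in replicate 2. With posterior mean TPM, 35 members were detected, against 33 with the deposited TPM. Nup37 had 1.21 and 0.08 TPM (93 counts and 1 count). Nup43 had 12 counts and 0 counts, or 0.15 and 0 TPM, and no fold is given for it, since the count of 0 allows a level in replicate 2 above that of replicate 1. The order of these 6 genes therefore differed between the libraries: Nup85 led in replicate 1 and Nup133 in replicate 2.

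The inner ring, which ties the outer rings to the channel and the membrane, had 3 of 5 genes detected and 1 gene far above the rest. Nup188, one of its large scaffold proteins, had 44.1 and 108.6 TPM (76.3 ± 45.6). The other 4 genes lay near 1 TPM in both libraries. Nup155 had 1.53 and 1.16 TPM, Nup93 had 1.07 and 1.09 TPM, Nup35 had 1.34 and 0.44 TPM, and Nup205 had 1.38 and 0.35 TPM. Nup188 and Nup205 are related scaffold proteins, and Nup188 was the higher of the pair in both libraries. The estimated counts of Nup35 (96.8 and 7) and of the importin alpha gene Kpna2 (1167.6 and 231.9) were not all whole, so reads were divided between entries and their levels are uncertain.

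Of the channel nucleoporins, Nup54 had 19.2 and 10.3 TPM (14.7 ± 6.28) and Nup98, which also binds the mRNA export factor Rae1, had 3.36 and 1.60 TPM. Nup62, the central channel protein that binds Nup54, was not found by its gene identifier. Its transcript was found by identifier under another gene entry, outside the 43, with 81.1 and 62.95 TPM (72.0 ± 12.9). At the cytoplasmic face, Nup88 had 81.9 and 92.5 TPM (87.2 ± 7.47), the highest mean of all nucleoporins by the rule. Its partner Nup214, a docking site for Xpo1, had 12.3 and 10.8 TPM (11.5 ± 1.04). Both genes of the cytoplasmic face lay close together in the libraries. In the nuclear basket, Nup153 had 9.25 and 23.97 TPM and Nup50, which helps to unload importin alpha, had 12.9 and 8.61 TPM. The membrane nucleoporin Nup210 had 32.7 and 7.23 TPM (19.96 ± 18.0). The paralogs Nup210l and Nup62cl had 0 counts in both libraries.

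Importin alpha proteins are the adaptors that read classical nuclear localization signals, and 5 of their 6 genes were detected. Kpna1 had 39.4 and 11.4 TPM (25.4 ± 19.8) and Kpna6 had 23.9 and 23.3 TPM (23.6 ± 0.389). Kpna4 had 12.6 and 16.4 TPM, Kpna2 had 9.18 and 14.7 TPM, and Kpna3 had 6.61 and 2.57 TPM. Kpna6 was thus almost level between the libraries, whereas Kpna1 led the group in replicate 1 and lay behind Kpna6, Kpna4 and Kpna2 in replicate 2. Kpna7 had 0 counts in both libraries.

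Importin beta, Kpnb1, carries the adaptors with their cargo and had 15.2 and 29.2 TPM (22.2 ± 9.93). Tnpo3, the import receptor of serine- and arginine-rich splicing factors, had the highest mean of its family but the widest spread, 58.3 and 6.84 TPM (32.6 ± 36.4). Its lead over Kpnb1 was therefore confined to replicate 1. Ipo9, an importin of histones H2A and H2B, had 12.6 and 16.0 TPM. Ipo13, which works in both directions, had 12.8 and 15.4 TPM, and Tnpo2, a receptor of proline-tyrosine signals, had 17.9 and 9.87 TPM. These 3 lay between 9.87 and 17.9 TPM, and their means were 14.3 ± 2.42, 14.1 ± 1.85 and 13.9 ± 5.70 TPM, which do not differ beyond their spread. Ipo8, Ipo4 and Ipo5 had means of 12.1 ± 0.764, 10.2 ± 4.44 and 8.89 ± 2.08 TPM. Ipo11 had 6.86 and 2.67 TPM, Tnpo1, the close relative of Tnpo2, had 2.92 and 1.35 TPM, and Ipo7, an importin of ribosomal proteins, had 2.87 and 0.42 TPM. Ipo7 was the only gene of the 11 that was not detected in both libraries.

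All 6 exportins were detected, with mean levels from 1.88 to 151.7 TPM. Xpo6, the exportin of actin bound to profilin (ENSMUSG00000000131.11, chr7:126101715-126200501, minus strand, mm10), had 110.5 and 192.9 TPM (151.7 ± 58.3), the highest mean of the 43 genes. Xpo1, also called CRM1, the exportin of leucine-rich export signals (ENSMUSG00000020290.10, chr11:23256041-23298249, plus strand), had 19.0 and 53.1 TPM (36.1 ± 24.1). Xpo4, which exports the translation factor eIF5A, had 6.85 and 1.37 TPM (4.11 ± 3.87). Xpot, the tRNA exportin, had 4.49 and 3.72 TPM (4.11 ± 0.544). Xpo7 (ENSMUSG00000022100.9, chr14:70654246-70766628, minus strand) had 4.34 and 2.03 TPM (3.19 ± 1.63) from 4481 and 340 estimated counts. Xpo5, the exportin of microRNA precursors, had 2.73 and 1.02 TPM (1.88 ± 1.21). Cse1l, which returns importin alpha to the cytoplasm and lies outside the naming rule, had 8.80 and 4.75 TPM (6.78 ± 2.86).

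Among these 7 export receptors Xpo7 held place 6 by mean TPM, place 6 in replicate 1 and place 5 in replicate 2. It took 2.77% of their summed TPM in replicate 1 and 0.784% in replicate 2, while Xpo6 took 70.5% and 74.5%. Xpo6, Xpo1 and Cse1l held the first places in that order in both libraries, and Xpo5 held the last. Xpo4 and Xpot changed places between the libraries. Xpot exceeded Xpo7 by 0.05 and 0.87 on the log2 scale (0.46 ± 0.58), a difference smaller than its spread. Xpo7 exceeded Xpo5 by 0.67 and 0.99 (0.83 ± 0.23). On the deposited levels, then, Xpo7 was one of the lower export receptors, close to Xpot.

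A level per length also depends on the transcript lengths used. Xpo7-201 is 15118 bases long in the tables and 4472 bases in the later annotation GENCODE M21, with 3261 coding bases. Xpo7-202, with 15121 bases, differs in its coding part by 3 bases at 1 splice acceptor. The pair is shown because the tables divide the reads of Xpo7 between these transcripts. The stretch is read 5′ to 3′ on the minus strand from GENCODE M21 transcripts, spans chr14:70688297-70691005 on mm10 including an intron, and has the 3 extra bases in capitals.
Xpo7-202: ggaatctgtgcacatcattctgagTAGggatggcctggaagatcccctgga
Xpo7-201: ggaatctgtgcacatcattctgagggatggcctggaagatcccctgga
Xpo7-201 took 100% of the gene's TPM in replicate 1 and 79.1% in replicate 2, where Xpo7-202 took 20.9% from 71.2 estimated counts. The authors' interval bounds for the posterior mean, whose level is not stated, were 2.16 to 4.10 TPM for Xpo7-201 and 0.213 to 2.13 TPM for Xpo7-202 in replicate 1. In replicate 2 they overlapped over most of their range, with upper bounds of 1.89 and 1.82 TPM. The division between the transcripts was therefore not resolved in replicate 2. In replicate 1 the levels of Xpo7-201 and Xpo7-202, 4.34 and 0 TPM, lay outside their own bounds, so the 100% is uncertain too. An exon of Xpo7 overlaps Npm2, an oocyte histone chaperone gene on the same strand, and Npm2 had 2 and 0 counts.

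With the estimated counts of each transcript set over its GENCODE M21 length, Xpo7 had 15.0 and 5.94 TPM (10.5 ± 6.43), place 3 of 7 in both libraries. That calculation assigns every read of Xpo7-201 to the shorter form, although reads in the part it no longer holds would belong to Xpo7-202. It also keeps the division between the transcripts, which was not resolved in replicate 2 and is uncertain in replicate 1. It shows how far the length can move the value and is not a measured level. A second view kept only full-length coding transcripts, those with at least 90% of the longest coding length of the gene. Xpo7 then had 4.34 and 2.02 TPM, nearly its whole level, and again held place 3 by the mean, with place 3 in replicate 1 and place 5 in replicate 2. Xpo6 had 3.64 and 2.31 TPM on this scale, and Xpo1 had 2.71 and 2.44 TPM. Cse1l had 8.7 and 2.19 TPM, and Xpo4 had 0.55 and 0.11 TPM. In replicate 2 the retained-intron transcript Cse1l-204, 760 bases long, held 53.8% of the deposited Cse1l level from 18 estimated counts. The share of Xpo7 was 16.0% in replicate 1 and 14.6% in replicate 2. The order by mean was Cse1l, Xpot, Xpo7, Xpo6, Xpo1, Xpo5 and Xpo4, and the log2 difference of Xpo7 from Xpo6 was 0.25 in replicate 1 and -0.19 in replicate 2. Cse1l and Xpot, Xpo6 and Xpo1, and Xpo1 and Xpo5 also changed places between the libraries. Of the pairs next to each other in this order that kept it, only Xpo5 over Xpo4 differed by more than its spread (2.76 ± 0.64). Pairs further apart were not compared in this way. Both views were chosen after the levels had been seen.

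**Figure D2:**
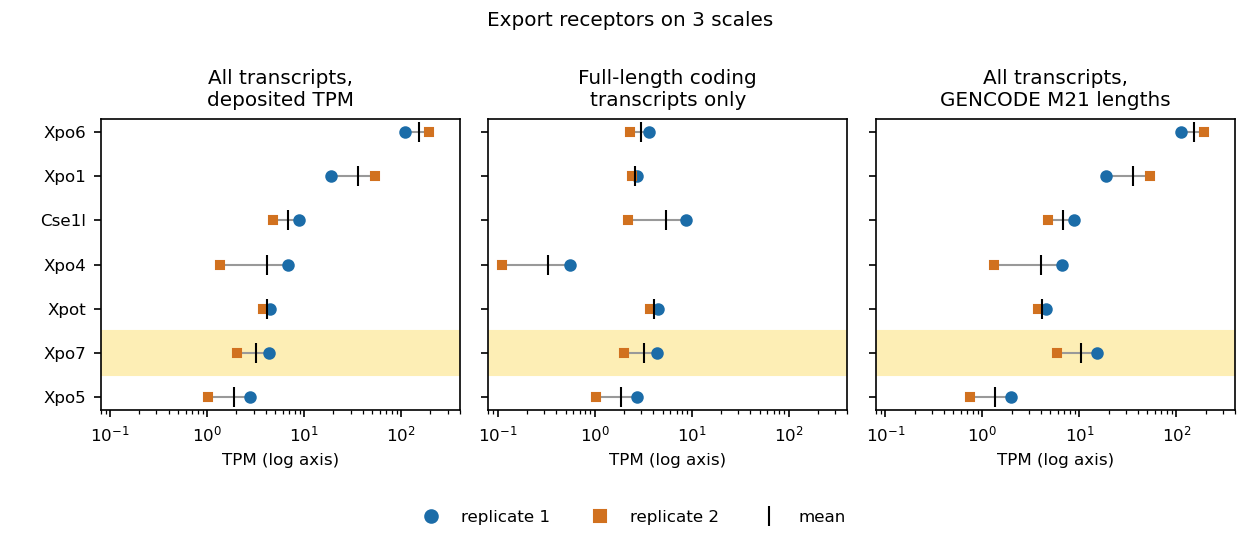
Levels of the 7 export receptors in TPM (log axis) on 3 scales, with circles for replicate 1, squares for replicate 2 and a bar at the mean; Xpo7 is shaded. The lead of Xpo6 over Xpo7 in the left panel, 151.7 against 3.19 TPM, is absent in the middle panel, where their means are 2.98 and 3.18 TPM; the right panel shows the effect of the other lengths on the calculation, not measured levels.

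By TPM, the leading levels of Xpo6, Nup88, Nup188 and Xpo1 came mostly from transcripts that do not encode the full protein. TPM is per length, so short transcripts weigh more in it than in counts. By estimated counts, full-length coding transcripts of Nup188 held 4345.6 of 6206 in replicate 1 and 597.3 of 1544 in replicate 2. Those of Xpo6 held 1105.1 of 6584 and 114.0 of 2206. Those of Nup88 held 4010.9 of 11069 and 146.9 of 1935, and those of Xpo1 1073.1 of 4166 and 152.2 of 1722. In Xpo6, the retained-intron transcript Xpo6-216 took 42.0% and 25.5% of the gene's TPM, the short coding transcript Xpo6-202 took 26.2% and 36.7%, and the processed transcript Xpo6-217 took 12.6% and 29.4%. Full-length coding transcripts held 3.29% and 1.20% of it. Nup88-209, a retained-intron transcript, took 67.5% and 92.9% of Nup88, and Nup188-203, another, took 73.2% and 91.2% of Nup188. Xpo1-206, a processed transcript with 13 exons against 25 in Xpo1-202, took 85.7% and 95.4% of Xpo1. In each of these 4 genes the share of full-length coding transcripts was lower in replicate 2 than in replicate 1.

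These transcripts hold only part of the exons of the full-length ones: 2 against 24 exons in Xpo6-216, 9 against 17 in Nup88-209 and 2 against 44 in Nup188-203. They also carry bases that the full-length transcripts lack. For each gene 1 border between shared and added bases is shown, because the first of each pair took the largest share of the gene's TPM in replicate 1. Each line is 60 bases from GENCODE M21 transcripts, read 5′ to 3′ on the gene's strand, with bases outside the exons of the full-length transcript in capitals. The Xpo6 pair lies at chr7:126104915-126104974 for Xpo6-216 and chr7:126104915-126105140 for Xpo6-213, minus strand. The Nup88 pair lies at chr11:70950106-70950165 and chr11:70947764-70950165, minus strand. The Nup188 pair lies at chr2:30343329-30343388 and chr2:30343329-30343500, plus strand. The Xpo1 pair lies at chr11:23267744-23267803 and chr11:23267744-23271172, plus strand.
Xpo6-216: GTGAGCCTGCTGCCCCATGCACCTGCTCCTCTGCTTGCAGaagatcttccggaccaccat
Xpo6-213: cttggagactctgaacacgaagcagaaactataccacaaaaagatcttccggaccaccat
Nup88-209: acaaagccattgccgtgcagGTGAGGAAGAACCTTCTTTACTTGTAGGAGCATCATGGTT
Nup88-202: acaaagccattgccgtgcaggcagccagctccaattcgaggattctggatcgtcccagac
Nup188-203: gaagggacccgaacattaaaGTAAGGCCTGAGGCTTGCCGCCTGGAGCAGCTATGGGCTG
Nup188-201: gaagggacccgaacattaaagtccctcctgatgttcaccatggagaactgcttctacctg
Xpo1-206: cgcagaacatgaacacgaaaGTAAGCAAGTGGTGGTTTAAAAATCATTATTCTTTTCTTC
Xpo1-202: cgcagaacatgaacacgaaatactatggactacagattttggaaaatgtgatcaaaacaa
Bases outside the exons of the full-length transcript made up 87 of 640 in Xpo6-216, 588 of 1976 in Nup88-209, 223 of 985 in Nup188-203 and 1011 of 2902 in Xpo1-206. The rest of each transcript is shared with the full-length one, so the assignment of a read depends on the authors' model wherever it falls in the shared part.

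Over all members, 39 were above 0 TPM in both libraries. In 20 of these at least 50% of the TPM lay in full-length coding transcripts in both libraries, in 14 less than 50% did in both, and 5 differed between the libraries. Of the 10 genes with the highest mean TPM, 6 were under 50% in both. Ranked by full-length coding transcripts instead, the leading genes were Kpnb1 (22.1 ± 10.0 TPM), Nup133 (17.4 ± 14.9), Kpna6 (16.8 ± 8.77) and Nup153 (16.6 ± 10.5), whose SDs exceed the differences between them. Nup88 followed with 15.8 ± 14.1 TPM, and 6 genes were among the 10 highest on both scales. Nup98 had no transcript of full coding length in the tables: Nup98-201, with 3561 coding bases against a longest of 5448, held all of its level. Kpna4-203, with 1563 coding bases against 1869, likewise fell short of the limit and led Kpna4. The limit is relative to the longest coding length of each gene. In Kpna3, where that length is 1563 bases, Kpna3-201 with 1563 coding bases counted as full-length. The places of Kpna4 and Nup98 among the 14 genes under 50% in both libraries therefore rest on the longest coding length used. Whether Kpna4-203 or Nup98-201 encodes less than a full protein was not tested.

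**Figure D3:**
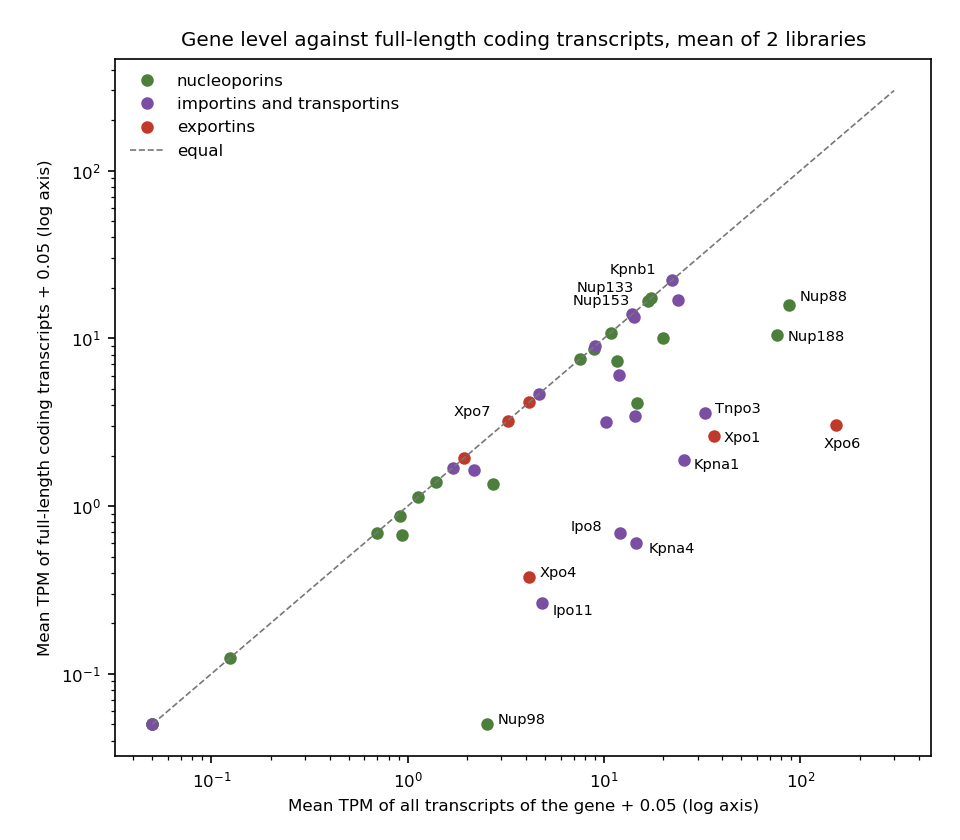
Mean TPM of full-length coding transcripts (vertical) against mean TPM of all transcripts (horizontal) for the 43 genes, both with 0.05 added and on log axes, coloured by class; the dashed line marks equal values. Kpnb1, Nup133, Nup153 and Xpo7 lie on the line, and Xpo6, Nup88, Nup188, Xpo1, Tnpo3 and Kpna1 lie far below it.

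The leading transcript of a gene is the one with the highest percent of its TPM. Among 13 members with at least 10 TPM in both libraries and more than 1 transcript, 11 had the same leading transcript in both, against 67.7% of all such genes. In 3 of the 13 (Kpnb1, Nup214 and Ipo13) it was full-length coding in both libraries, against 42.4% of such protein-coding genes. Kpna4, led by Kpna4-203 in both libraries, was left out of the 3 by the relative limit on coding length described above. Kpna6 and Xpo6 changed their leading transcript. In Kpna6 the retained-intron transcript Kpna6-206, 534 bases long, had 54.7% in replicate 1 and 1.34% in replicate 2. The coding transcript Kpna6-201 had 2.57% and 83.8%, and the longer coding transcript Kpna6-202 had 41.9% and 14.8%. The even TPM of Kpna6 thus covered different transcripts. By estimated counts, its full-length coding transcripts held most of the gene in both libraries, 3926.5 of 4274 and 667.6 of 669. Among the members that kept a leading transcript short of full length, Kpna1-209, of the nonsense-mediated decay class and 780 bases long, had 92.7% and 87.9% of Kpna1. Tnpo3 missed the 10 TPM minimum in replicate 2, and its processed transcript Tnpo3-204, 456 bases long, had 88.9% and 78.8% of its TPM. By estimated counts, Tnpo3-204 held 1086.1 of 2892 and 19.65 of 83.

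The libraries were then set side by side by TMM-scaled CPM, which is not per length, as 1 library against 1 and so without a test. The minimum mean CPM of 1 was met by 37 members. Of these, 12 were at least 2-fold higher in replicate 1, against 30.0% of the 8884 genes compared, and 5 were at least 2-fold higher in replicate 2, against 17.9%. The 17 members make 45.9% of those compared, near the 47.9% of all genes. The median log2 ratio of replicate 2 to replicate 1 was -0.46 over the members and -0.20 over all genes compared. Scaled by total counts instead, the members split into 17 and 3 and all genes into 3524 and 966, and the median of all genes moved to -0.60. Directions are therefore given relative to the TMM scale.

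The members furthest toward replicate 1 were Nup85, with a log2 ratio of -4.13 (95% counting interval -4.85 to -3.51), Ipo7 with -2.63 (-3.52 to -1.88) and Tnpo3 with -2.38 (-2.71 to -2.06). Nup107, Nup205 and Ipo11 followed with -1.84, -1.78 and -1.57. The others called in this direction were Nup160, Kpna1, Xpo4, Xpo5, Kpna3 and Tnpo1, from -1.46 to -1.05. The 5 members higher in replicate 2 were Nup133 with 2.15 (2.06 to 2.23), Nup153 with 1.51, Xpo1 with 1.47, Xpo6 with 1.17 (1.10 to 1.24) and Kpnb1 with 1.08. Xpo7 had -0.97 (-1.14 to -0.82), just inside the 2-fold limit. Members of 1 complex did not move as a block: in the outer ring Nup133 was higher in replicate 2, and Nup85, Nup107 and Nup160 were higher in replicate 1. The 4 numbered outer ring genes compared had full-length coding shares of at least 96.9% except Nup160 in replicate 1, with 40.8%.

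**Figure D4:**
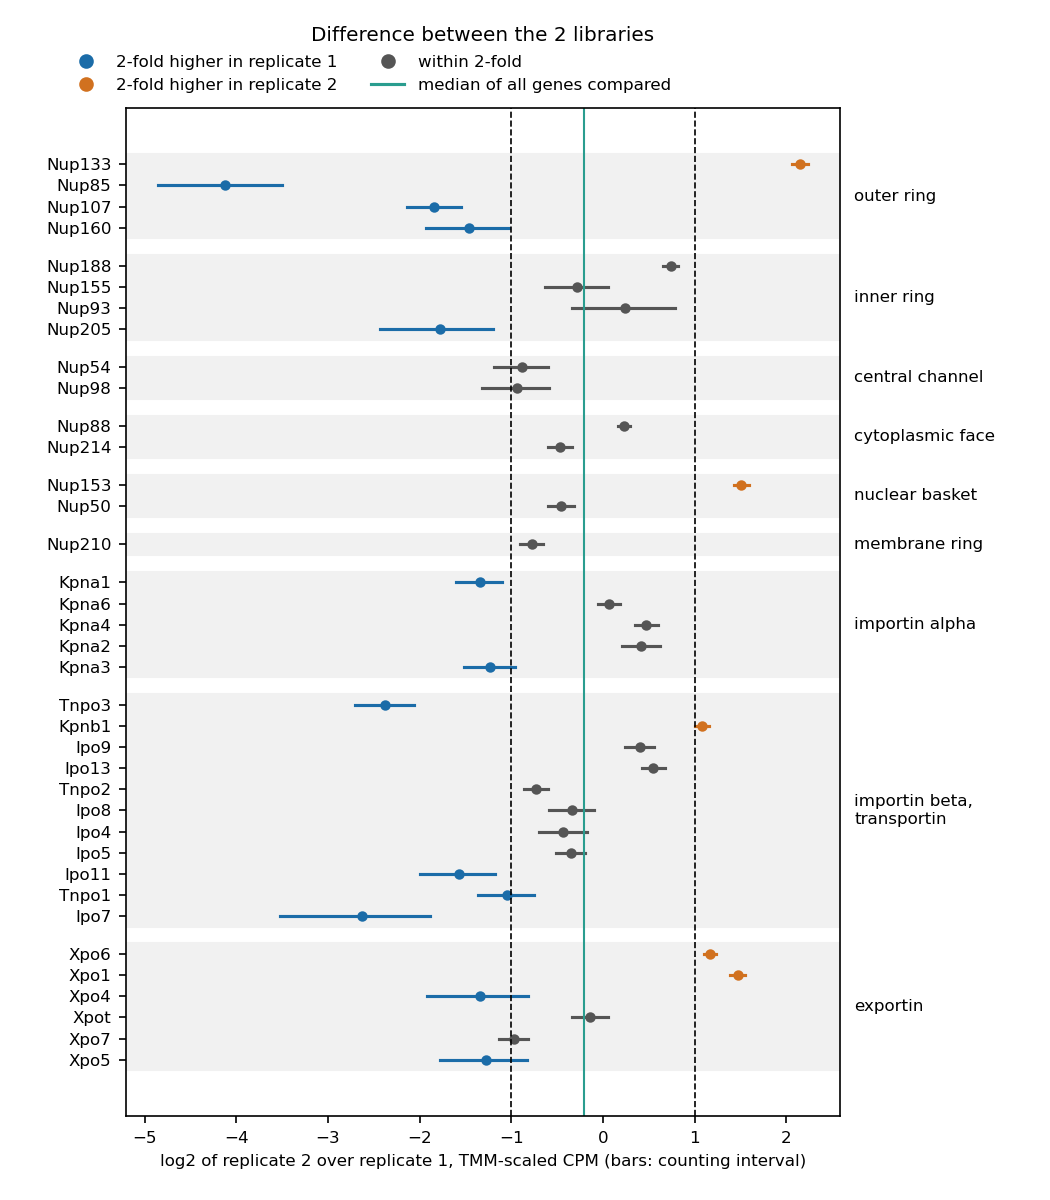
log2 ratio of replicate 2 to replicate 1 in TMM-scaled CPM for the 37 members compared, with 95% counting intervals as bars, dashed lines at a 2-fold difference and a line at the median of all genes compared (-0.20). Of the members, 12 lie beyond the left limit and 5 beyond the right one.

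Of 14 members an exon overlaps an exon of another gene, among them Nup88 with Rabep1 and Tnpo3 with Irf5 on the opposite strand and Nup35 with Dusp19 on the same strand. Reads in the overlap cannot be assigned by position in same-strand pairs, nor in opposite-strand pairs unless counting used strand, which no source used here states.

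Of 13 pore genes with other names, 12 were detected, and their median of 31.7 TPM lay above that of the numbered nucleoporins (5.09 TPM). Tpr, the filament protein of the nuclear basket, had 199.2 and 294.3 TPM, of which full-length coding transcripts held 5.08% and 4.81%. The membrane nucleoporin Pom121 had 74.1 and 181.7 TPM. Ndc1, which anchors the pore in the membrane, had 2.23 and 0.90 TPM. Of the 13 genes 4 were at least 2-fold higher in replicate 1, against 30.0% of all genes compared, and 5 in replicate 2, against 17.9%. Nup58 and Nup42, listed under their older symbols Nupl1 and Nupl2, had 6.45 and 30.9 TPM and 8.45 and 16.3 TPM. Genes of the Ran cycle had a median of 36.9 TPM with 7 of 8 detected. Ran itself had 1944 and 2201 TPM, a higher level than that of any member, of which full-length coding transcripts held 10.8% and 6.36%. By estimated counts, which are not per length, full-length coding transcripts held most of Ran, 32125.2 of 41406.8 and 3533.3 of 5821. The Ran cofactor Ranbp1 had 288.8 and 153.1 TPM. Rangrf, a Ran-binding protein, had 10.0 and 0 counts. Of the 7 Ran cycle genes compared, 3 were at least 2-fold higher in replicate 1 and 0 in replicate 2, beside the same 30.0% and 17.9%. Of the factors that export mRNA, 11 of 14 were detected, with a median of 12.5 TPM. The helicase gene Ddx39b had 242.0 and 223.8 TPM (60.9% and 36.4% in full-length coding transcripts). The adaptor gene Alyref had 282.4 and 88.1 TPM (20.5% and 13.2% in full-length coding transcripts, but 13456.6 of 21495 and 440.6 of 921 estimated counts). Thoc1 of the THO complex had 0.46 and 0 TPM. Of the 13 compared, 8 were at least 2-fold higher in replicate 1 and 0 in replicate 2, again beside 30.0% and 17.9% of all genes.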

How the data were processed

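Gene and transcript tables of 2 polyadenylated RNA libraries on mm10 were used. The annotation, GENCODE M4, and the start from transcriptome alignments come from the text deposited with them. No source used here names the quantification tool, its version or the use of strand. The values are, as deposited, estimated counts (some not whole), TPM corrected for effective length, and FPKM. For transcripts, the authors also give the percent of the gene's TPM, and for both kinds of table posterior means with interval bounds of unstated level.

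Symbols came from GENCODE M21, matched on the gene identifier with its version removed, and both annotations are on mm10. The members and gene lists were chosen with earlier results of these data known. All 43 members are accounted for. Named with values were every export receptor, the 3 highest and the lowest gene of each role, members 2-fold apart (the 6 furthest each way), not detected or with a changed leading transcript, and the 2 highest and the lowest of each pathway list. Detection meant 1 TPM or more in each library. For library differences, rounded counts were scaled with edgeR 4.0.16 (TMM factors of 1.15 and 0.871). A difference of 2-fold was called where the mean CPM reached 1, with a prior count of 0.5. An exact 95% binomial interval of the count ratio was given beside it. The call, but not the interval, was tried on simulated counts. These held counting error only and changes larger than the 2-fold limit. No p-value was computed, since the labels give 1 group. Alternatives were DESeq2 1.42.0 size factors, total counts, other units, minimum levels and transcript sets. Other versions were R 4.3.3, Python 3.11.15, pandas 2.3.3, scipy 1.17.1 and, for figures, matplotlib 3.10.9.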

Additional observations from a re-analysis of the deposited data

How the results depend on the processing

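The place of Xpo7 and the median level of the 43 genes moved most with the setting. With TMM-scaled CPM, which is not per length, Xpo7 ranked 3 of 7 with a share of 14.6%, and the median was 16.8. With protein-coding transcripts only, it ranked 4 with 5.06%. Transcript length and full-length coding were settings chosen after seeing the data: Xpo7 ranked 3 with full-length coding transcripts only (15.3%, median of all members 3.12 TPM), with GENCODE M21 lengths (5.65%, a calculation that gives all reads of Xpo7-201 to its shorter form) and with counts per kilobase of coding length (14.5%). Without mitochondrial and globin genes the median was 11.5 TPM. Leaving out each replicate in turn gave a rank of 5 to 6, a share of 0.784 to 2.77% and a median of 6.84 to 9.25 TPM. A mean CPM of at least 10 left 11 members 2-fold apart. The other settings at 2-fold gave 16 to 20, a fold of 1.5 gave 23, and the count of detected members ranged from 22 to 39 over 8 settings. No paired analysis was possible because the labels give 1 group. Replicate 2 was the shallower library, and its limit for a count of 0 is 0.217 CPM.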

Other observations

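The nuclear lamina, the filament layer on which pores are anchored, was read from 5 genes, of which 4 were detected in both libraries. Lmna, which encodes lamins A and C, had a level of 1529.9 TPM in the deeper library, replicate 1, and of 2841 TPM in replicate 2. Lbr, the lamin B receptor of the inner nuclear membrane, had 84.1 and 259.9 TPM. Full-length coding transcripts held 66.2% and 23.2% of the Lbr level, or 55.65 and 60.36 TPM. By TMM-scaled CPM, Lbr was within 2-fold between the libraries. Lmnb2, the gene of lamin B2, had 2 estimated counts in replicate 1 and 0 in replicate 2. Full-length coding transcripts made up 34.4% of the Lmna level in replicate 1 and 15.9% in the other library. The limit for full length is relative to the longest coding length of Lmna, 1995 bases. Whether the remaining transcripts include a complete form of lamin C was not tested.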
